A study of Mus musculus with 6 samples.

Results

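The cells described here are the fibroblasts and the lymphatic endothelial cells among the sorted TSLP reporter cells of the small intestine, compared between its proximal and its distal end. Members were chosen by counts alone. A fibroblast had at least 1 UMI (a molecular tag that marks 1 captured transcript) of Pdgfra and at least 3 of Dcn with none of Prox1 or Ptprc, and a lymphatic cell had UMIs of at least 3 of the 5 genes Prox1, Lyve1, Flt4, Mmrn1 and Reln with none of Pdgfra or Ptprc. Of the 76832 cells that passed the quality filter in the 4 small intestinal libraries, 48087 fell in the fibroblast gate and 14344 in the lymphatic gate, together 62431 cells of 102534 in the series. The groups were proximal jejunum lamina propria and distal ileum lamina propria, with 2 libraries each. All came from C57BL/6 Flare-TSLP mice, in which a tdTomato cassette in the Tslp locus makes Tslp-expressing cells red, and which were derived by gene targeting in embryonic stem cells. Peyer's patches were removed and live tdTomato+ cells were sorted. No treatment, age or sex was given in the labels for these libraries. The tdTomato transcript was nearly absent from the libraries, between 1.47 and 5.82 UMIs per 1e6 in the fibroblast gate. Each library pooled cells tagged with 3 barcoded antibodies (hashtags), the same 3 in replicate 1 of both regions and another 3 in replicate 2 of both. The labels do not pair hashtags with mice, and each library was counted as 1 sample. P-values therefore measure the spread between libraries that may in part be technical.

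Intestinal fibroblasts keep a record of their position along the gut in their Hox genes, transcription factors that lie in 4 clusters and that are switched on in the order of their place in the cluster, so that genes with higher paralog numbers mark more posterior tissue. Fibroblasts around the crypts, called trophocytes, supply factors such as Grem1 that sustain epithelial stem cells, while fibroblasts directly under the epithelium supply BMP ligands. Lymphatic endothelial cells line the lacteals and the vessels of the submucosa. They take up the chylomicrons in which enterocytes pack dietary fat and cholesterol, most of which is absorbed in the jejunum, whereas bile acids are taken back in the ileum. Cells adjust sterol synthesis to their sterol content. When sterol is scarce, SREBP2 raises the enzymes of the pathway, and when it is abundant, sterol derivatives activate LXR, which raises cholesterol export.

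Genes that the gates did not use were read as a check of their names. In the fibroblast gate Col1a1, a fibrillar collagen that the gate did not use, lay between 2985 and 3598 CPM (its UMIs per 1e6 in the summed gate) in every library, against 81.3 to 158 CPM in the lymphatic gate. In the lymphatic gate Ccl21a, the chemokine of lymphatic vessels, lay between 2146 and 3906 CPM, against 7.64 to 37.0 CPM in the fibroblast gate. Epcam, which marks epithelium, did not exceed 3.44 CPM in either. The gene UMIs behind these levels were 95389073 to 150863266 per library in the fibroblast gate and 4969441 to 40619029 in the lymphatic gate. Barcodes with at most 100 UMIs gave a profile of free RNA, which a gate must exceed in its higher region before a gene is counted as its own. Genes listed for other cell types were not all absent. In the fibroblast gate Rgs5, listed for mural and smooth muscle cells, lay between 554 and 1034 CPM. Cd34, listed for blood endothelium, lay between 313 and 398 CPM there. In the lymphatic gate Emcn and Gpihbp1, of the blood endothelial list, lay between 698 and 784 and between 204 and 325 CPM. These exceeded free RNA, whereas Plvap and Myh11 of the same lists did not in either gate. No doublet caller was run. Each pair of small intestinal libraries shared between 86 and 118 cell barcodes, which is at most 0.590% of a library. In the fibroblast gate, cells without a called hashtag made up 38.2% and 32.6% in the proximal libraries against 14.1% and 24.5% in the distal ones, and their part in the results was examined only by keeping cells with exactly 1 hashtag.

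Shares of the gates followed the replicate number more than the region. Fibroblasts made up 66.4% of proximal replicate 1 (65.7 to 67.1, the 95% exact binomial interval), 50.4% of proximal replicate 2 (49.6 to 51.1), 83.8% of distal replicate 1 (83.3 to 84.3) and 47.9% of distal replicate 2 (47.2 to 48.6). Lymphatic cells made up 13.8%, 29.5%, 3.51% and 29.1% in the same order. Distal replicate 1 stands apart with only 747 lymphatic cells, and in replicate 2 the regions lay 0.421 percentage points apart. The regions did not separate for either share (exact permutation test over libraries, two-sided p = 1 for fibroblasts and 0.667 for lymphatic cells; 2 libraries against 2 cannot go below 0.333). The intervals cover counting error only. Within the fibroblast gate, cells with a UMI of the trophocyte genes Grem1, Dkk2 or Ackr4 and none of Wnt4, Agt or Foxl1 are called the trophocyte side, and cells with the reverse pattern the subepithelial side. The trophocyte side held 77.2% and 67.9% of the proximal fibroblasts and 88.5% and 69.7% of the distal ones, and the subepithelial side 9.23% and 16.0% against 3.24% and 13.1%. Within each replicate the distal library thus held relatively fewer subepithelial-side cells, but distal replicate 2 lay above proximal replicate 1. The regions did not separate for this share (exact permutation test over libraries, p = 0.667). Dkk2, which helps define the sides, had a UMI in 60.4% and 53.8% of proximal and 77.5% and 62.6% of distal fibroblasts. Its part in these shares was not tested. Changes of the named genes within each side are given further on. At the edge of the gates, 22 to 51 cells per small intestinal library had exactly 3 Dcn UMIs and 18 to 52 had 2, and 3 to 59 cells had 3 of the lymphatic genes against 25 to 243 with 2.

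**Figure D1:**
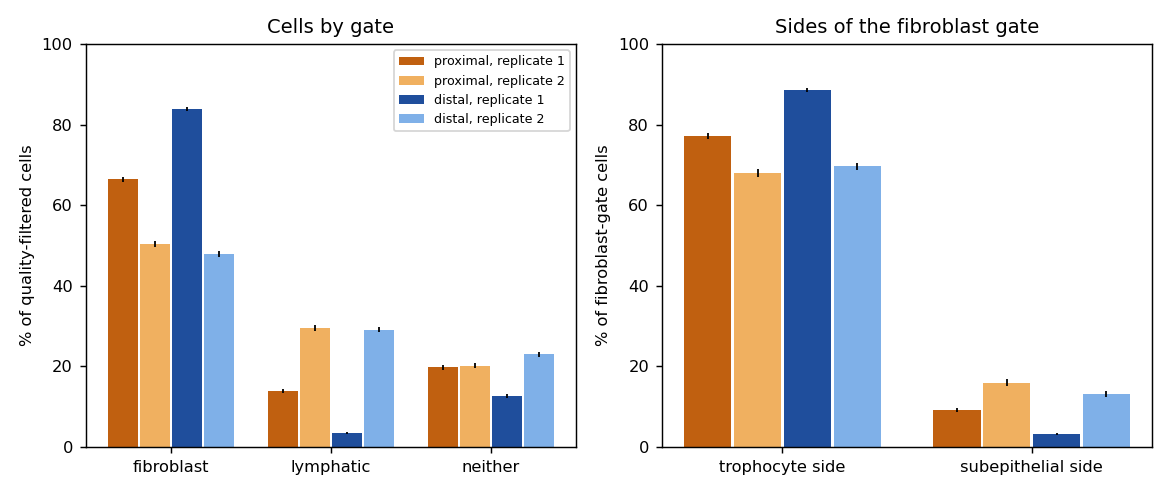
Share of cells in each gate (left, % of quality-filtered cells) and on each side of the fibroblast gate (right, % of fibroblast-gate cells) in the 4 libraries. Bars are single libraries and black lines are 95% exact binomial intervals. The lymphatic share was 3.51% in distal replicate 1 and 29.1% in distal replicate 2.

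To ask how fibroblasts differ between the ends of the small intestine, the UMIs of the gate were summed per library and tested with replicate number as a block. Of 19300 genes, 57 were higher distally (0.295% of those tested) and 62 lower (0.321%) at an adjusted p of 0.05 (edgeR's quasi-likelihood test, Benjamini-Hochberg). The changes were few but large. Of the 119 genes, 102 changed by more than 1 on the log2 scale and 37 by more than 2, and the median of all genes was 0.01. In cells with exactly 1 hashtag, which are part of the same libraries, 68 genes passed, 65 of the 119 among them. The count depends on the block. Without it 0 genes passed (693 at an unadjusted p under 0.05), with every one of the 119 keeping its direction, and leaving out 1 library, also without the block, gave 15 genes without proximal replicate 1, 53 without proximal replicate 2 and 0 without either distal library. The fit without the block also made no calls on simulated data with known changes. Of the blocked fit's calls on simulated data 8.18% were false, above the threshold of 0.05. Those data carried replicate differences taken from the blocked fit, so they cannot decide whether the block is warranted here. Each replicate holds 1 library of each region, so dropping the block could hardly turn the direction of a called gene.

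Distally the called Hox genes of the Hoxa cluster fell and those of the Hoxc cluster rose. Of 39 Hox genes listed, 26 were expressed enough to be tested. Distally 4 rose (Hoxc6, Hoxc8, Hoxc9 and Hoxc10) and 5 fell (Hoxa2, Hoxa3, Hoxa4, Hoxa5 and Hoxb5), where 0.295% and 0.321% of all genes did, with a median of -0.04. Hoxa5 (chromosome 6, 52178734 to 52181567 in GRCm39), which patterns the midgut mesenchyme, was at 41.9 and 57.1 CPM in the proximal and at 9.62 and 16.5 CPM in the distal replicates 1 and 2. Both distal libraries lay far below both proximal ones. The log2 fold change was -1.91 with a standard error (SE) of 0.14 (edgeR, adjusted p = 0.000723). Hoxa4, its neighbour in the cluster (52166651 to 52168733), was at 8.58 and 12.1 CPM proximally and 1.64 and 2.62 CPM distally, a log2 fold change of -2.25 (SE 0.19, adjusted p = 0.00116).

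Hoxa2 and Hoxa3 also fell distally, by 2.06 (SE 0.21, adjusted p = 0.00319) and 1.07 (SE 0.16, adjusted p = 0.0243) on the log2 scale, and both overlap a predicted gene on the same strand. Hoxa2 did not exceed its level in free RNA. Hoxa3 was at -0.64 without distal replicate 1 and -1.55 without distal replicate 2. Hoxb5 (chromosome 11, 96194162 to 96196947) was at 21.1 and 31.7 CPM proximally and 7.32 and 14.4 CPM distally (log2 fold change -1.29 ± 0.15 SE, adjusted p = 0.00676). It was the only Hoxb gene of the 8 tested that passed. Of the noncoding transcripts of the Hoxa and Hoxb clusters, only Hoxb5os and Hoxaas2 are given here. They fell by 1.69 and 1.71 on the log2 scale, although Hoxaas2 did not exceed its level in free RNA.

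Hoxc8 (chromosome 15, 102898851 to 102902543) showed the opposite pattern, at 17.1 and 9.60 CPM proximally and 96.7 and 106 CPM distally. Both distal libraries lay far above both proximal ones. The log2 fold change was 3.02 (SE 0.22, adjusted p = 0.000621), and UMIs were found in 11.7% and 7.51% of proximal against 48.7% and 53.8% of distal fibroblasts. Hoxc9, the next gene of the cluster, was close to absent proximally with 6 UMIs in both libraries together and had 2294 UMIs distally. The pooled distal level was 328 times the proximal one (95% counting interval 150 to 894). Hoxc10 had 0 proximal and 105 distal UMIs, at least 30.0-fold higher against a floor of 3 UMIs over both proximal libraries. Its exons overlap a transcript annotated as Hoxc5 on the same strand, so these reads may be shared.

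Hoxc6 rose by 1.26 (SE 0.14, adjusted p = 0.00485), from 22.99 and 22.7 to 50.3 and 56.5 CPM. Hoxc5 and Hoxc4, with lower paralog numbers, were at log2 fold changes of 0.78 and 0.23 and did not pass (adjusted p = 0.0982 and 1.00). Along the Hoxc cluster the fitted change thus grew from Hoxc4 through Hoxc6 and Hoxc8 to Hoxc9. Along the Hoxa cluster it was negative from Hoxa2 to Hoxa6. It was positive for Hoxa7 (0.56, adjusted p = 0.206) and Hoxa9 (3.10, adjusted p = 0.0630), neither of which passed in the whole gate. With the sides fitted alone, Hoxa7 was at 0.66 on the trophocyte side (adjusted p = 0.0094) and 0.58 on the subepithelial side (adjusted p = 0.140). Hoxa9 did not exceed 0.388 CPM in any of the 4 libraries. The 4 Hoxd genes tested had log2 fold changes between -0.17 and 1.08, none past the threshold.

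**Figure D2:**
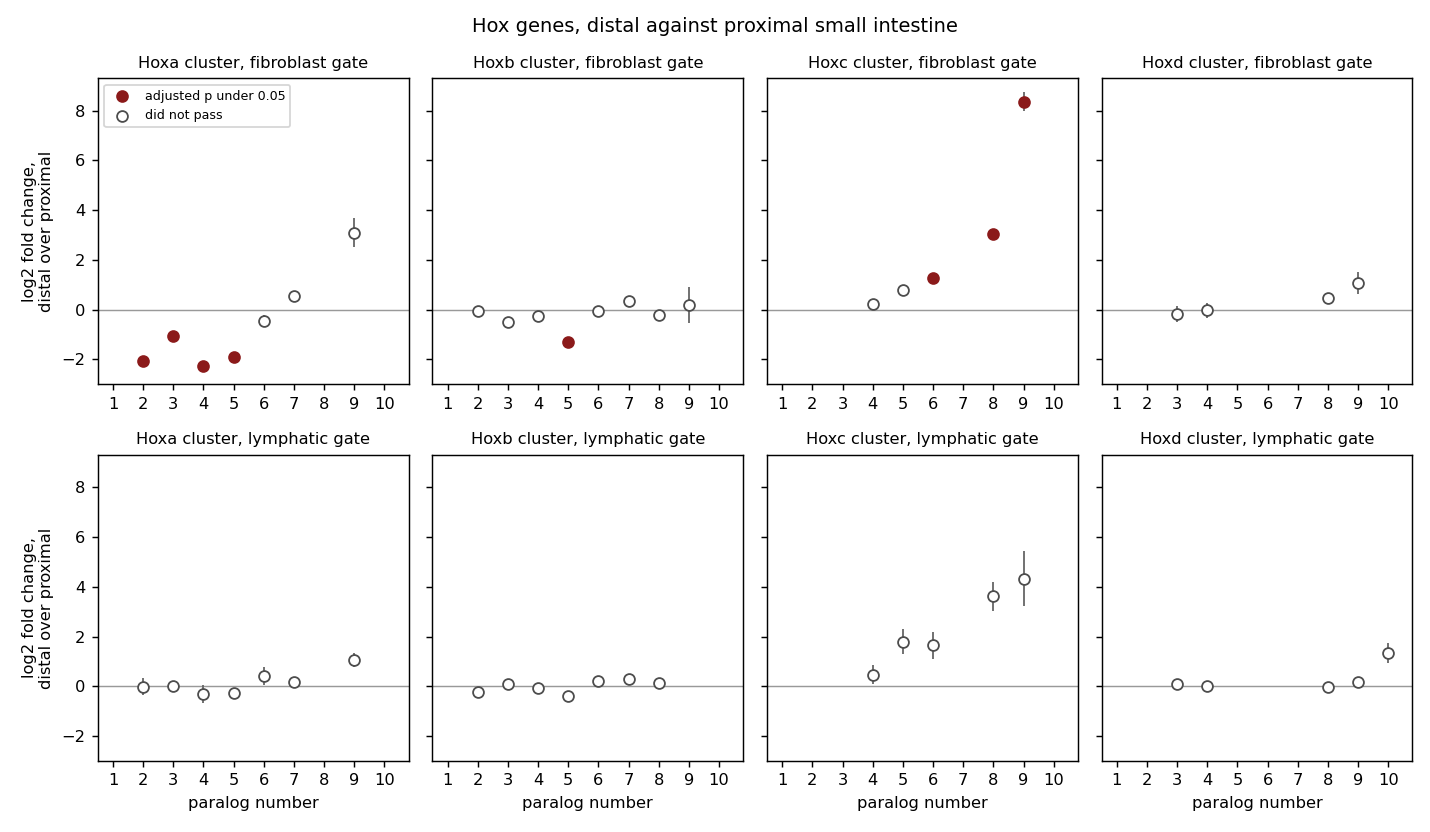
Log2 fold change (distal over proximal, points, with standard errors) of tested Hox genes against its paralog number, by cluster, in the fibroblast gate (top) and the lymphatic gate (bottom). Red points passed an adjusted p of 0.05. Hoxc10, at 0 UMIs proximally, is among the genes left out. In fibroblasts the Hoxc series rises to 8.36 at Hoxc9, while Hoxa2 to Hoxa5 lie between -2.25 and -1.07.

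Apart from Hox genes, 10 of the 12 genes named by rank as lower distally are described next. Scg2 had the largest change of the 24 genes named by rank. Scg2, a granin known from secretory granules of neuroendocrine cells, was at 26.5 and 12.4 CPM proximally and at 0.205 and 0.294 CPM distally (chromosome 1, 79412386 to 79417837, log2 fold change -6.21 ± 0.35 SE, adjusted p = 0.000296). Scg2 had a UMI in 2.92% and 1.27% of the proximal fibroblasts, and did not exceed 15.1 CPM in any proximal fraction of cells with 1 hashtag, where it also passed. Chodl, a membrane lectin, was at 70.1 and 78.3 CPM proximally and 10.3 and 15.7 CPM distally (log2 fold change -2.50 ± 0.15 SE, adjusted p = 0.000494). Bche, the butyrylcholinesterase that hydrolyses choline esters, was at 19.1 CPM in both proximal libraries and at 3.33 and 3.60 CPM distally (log2 fold change -2.42 ± 0.16 SE, adjusted p = 0.000513). Their regions do not overlap, as the rule that named them required, which 26.8% of all tested genes also met.

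Alk, a receptor tyrosine kinase, was at 125 and 73.5 CPM proximally and 25.3 and 17.0 CPM distally (log2 fold change -2.17 ± 0.14 SE, adjusted p = 0.000513). Ntrk2, the receptor of brain-derived neurotrophic factor, was at 31.4 and 17.97 against 9.23 and 4.31 CPM (log2 fold change -1.86, adjusted p = 0.00127). It was at -1.30 without proximal replicate 1 and -2.56 without distal replicate 1. Scara5, a scavenger receptor that binds ferritin, had the highest level of the 12 genes named by rank as lower distally, at 219 and 134 CPM proximally and 59.2 and 35.6 CPM distally (log2 fold change -1.85 ± 0.15 SE, adjusted p = 0.000842). Adam23, Lrrc7, Fgf14 and the nuclear receptor Esrrg fell by 2.81, 2.32, 1.95 and 1.86 on the log2 scale.

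Of the 12 genes named by rank as higher distally, Cntn4 had the largest change. Cntn4, a contactin of the neuronal surface, was at 1.62 and 0.519 CPM proximally and 14.7 and 10.99 CPM distally (log2 fold change 3.79 ± 0.28 SE, adjusted p = 0.000723). Masp1, a protease of the lectin pathway of complement, was at 4.22 and 2.03 against 19.4 and 21.1 CPM (log2 fold change 2.82, adjusted p = 0.0015). Cdh8, a cadherin, was at 3.42 and 2.25 against 17.2 and 15.5 CPM (log2 fold change 2.60 ± 0.18 SE, adjusted p = 0.000621). The most abundant of these 12 was Edil3, an integrin-binding matrix protein, at 105 and 148 CPM proximally and 290 and 406 CPM distally (log2 fold change 1.51 ± 0.16 SE, adjusted p = 0.00496).

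Pitx1, a homeobox factor that specifies the hindlimb and the only one of 24 tested regional transcription factors that passed, was at 6.58 and 7.33 CPM proximally and 19.6 and 16.1 CPM distally (log2 fold change 1.40 ± 0.18 SE, adjusted p = 0.0118). Of all genes 0.295% were called higher distally, and the median of these 24 was -0.06. Exons of Pitx1 overlap those of Gm28760 on the same strand, so these reads may be shared. Saa3, an acute-phase serum amyloid, was at 21.4 and 19.1 CPM against 109 and 44.6 CPM (log2 fold change 1.83 ± 0.26 SE, adjusted p = 0.0182). The distal replicates of Saa3 differed by more than the proximal ones did, but both exceeded them. Without distal replicate 1 Saa3 was at 1.10 and without distal replicate 2 at 2.55. Steap4, a metalloreductase, Apod, a lipocalin, and Ppp1r14c rose by 1.38, 1.16 and 1.54 on the log2 scale. Steap4 was at 0.83 without distal replicate 1 and 1.87 without distal replicate 2. Cntn4 was at 4.72 without proximal replicate 1 and 3.02 without proximal replicate 2.

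**Figure D3:**
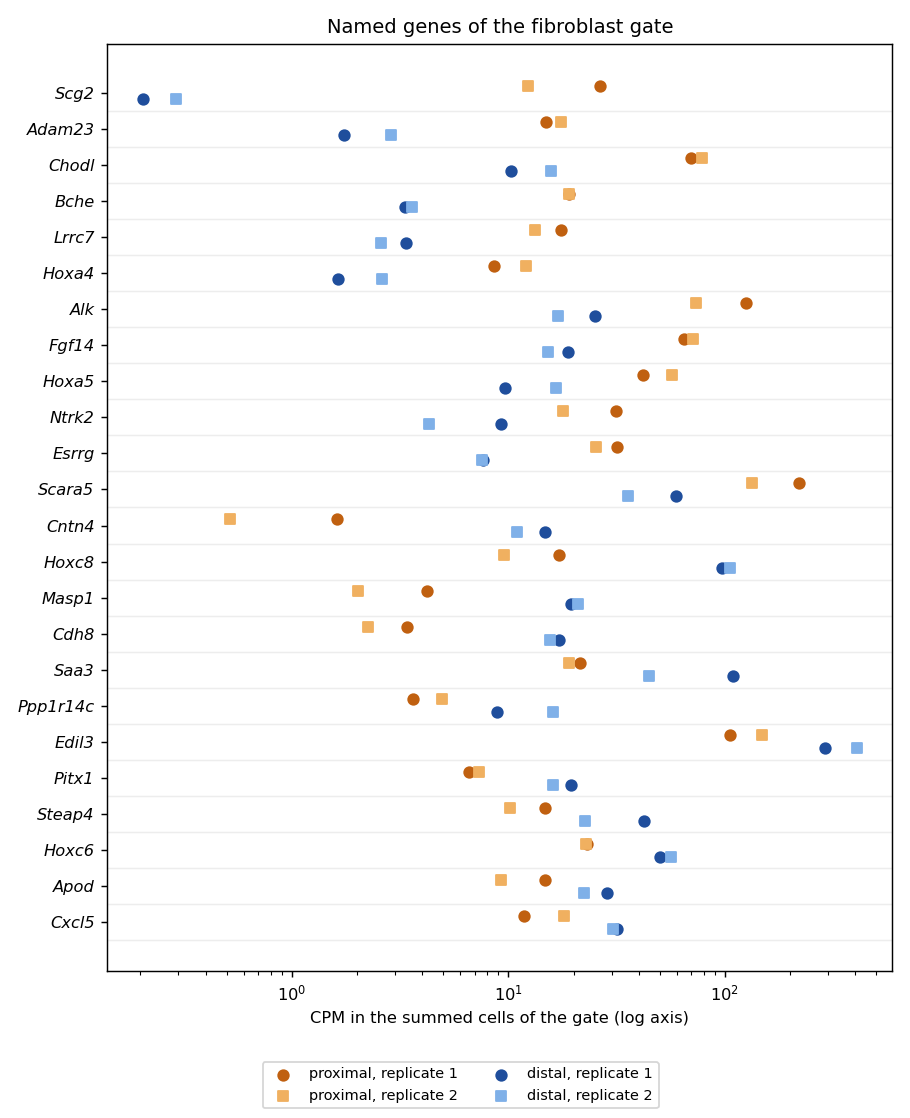
Level (CPM, log axis) of the 24 named genes in the summed fibroblasts of each library, with proximal libraries in orange and distal ones in blue. The genes were chosen so that the distal points lie on 1 side of the proximal points, as they do for 26.8% of all tested genes. Scg2 is at 0.205 and 0.294 CPM distally.

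Of 34 chemokine and cytokine genes tested, 4 rose distally (Ccl2, Ccl7, Cxcl1 and Cxcl5) and 1 fell (Cxcl13), where 0.295% and 0.321% of all genes did, with a median of 0.11. Cxcl13, which draws B cells into lymphoid follicles, was at 138 and 106 CPM proximally and 39.5 and 29.6 CPM distally (log2 fold change -1.78 ± 0.14 SE, adjusted p = 0.000842). Cxcl5 and Cxcl1, which draw neutrophils, rose by 1.13 (adjusted p = 0.0414) and 1.30 (adjusted p = 0.0149), and Ccl2, which draws monocytes, by 1.21 (adjusted p = 0.0124). For Ccl2, Ccl7 and Cxcl1 the distal gate level did not exceed the level in free RNA, so their UMIs may come in part from other cells, which was not tested. Cxcl13 was at -2.67 on the trophocyte side of the gate, where it passed, and at -0.01 on the subepithelial side (adjusted p = 1.00). In cells with 1 hashtag Cxcl5 did not pass (log2 fold change 0.94, adjusted p = 0.111).

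Of 16 retinoid genes tested 0 rose and 1 fell, where 0.295% and 0.321% of all genes did. The median was -0.37, and 12 of the 16 were below 0. The gene that fell was Lrat, which esterifies vitamin A for storage, at 263 and 407 CPM proximally and 97.0 and 211 CPM distally (log2 fold change -1.15 ± 0.18 SE, adjusted p = 0.0294). With 1 library left out and no block Lrat ranged from -0.69 without distal replicate 1 to -1.66 without distal replicate 2, and was at -0.78 without proximal replicate 2. Lrat also belongs to the list of subepithelial-state genes, of which 9 of 11 were below 0 with a median of -0.47. Cells of the subepithelial side made up a smaller share distally within each replicate, though the regions overlapped. Within the sides Lrat was at -1.20 on the trophocyte side (adjusted p = 4.3e-05) and -0.69 on the subepithelial side (adjusted p = 0.327). The part of cell composition in the other list values was not tested. The retinoic acid enzymes Aldh1a2 and Aldh1a3 were at -0.60 and -0.68 and did not pass (adjusted p = 0.189 and 0.206). Of 42 WNT and BMP genes none passed. Rspo3, Wnt5a and Dkk2 were at -0.65, -0.81 and 0.75 (adjusted p = 0.121, 0.183 and 0.217). Of 55 matrix genes 1 rose and 1 fell, where 0.295% and 0.321% of all genes did, with a median of 0.08. Col12a1 rose by 1.05 (adjusted p = 0.0363) and Smoc2 fell by 1.05 (adjusted p = 0.0157).

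All 37 interferon-response genes tested had a fitted change above 0, with a median of 0.31 against 0.01 over all genes. None of them passed. In both replicates 26 of the 37 were higher distally, where 19.1% of all genes were, and Mx1 came nearest to the threshold (log2 fold change 1.24, adjusted p = 0.0811). Of 22 antigen presentation genes 21 were above 0, with a median of 0.26, and none passed. Their summed level was 4547 and 4462 CPM in the proximal and 6297 and 4904 CPM in the distal libraries, below 7211 and 7633 CPM proximally and 8213 and 7667 CPM distally in free RNA, so they are not counted as the gate's own. The summed interferon level was 3251 and 3114 against 4069 and 3574 CPM. In free RNA the interferon genes summed to 3460 and 3775 CPM proximally and 4011 and 4214 CPM distally, above the gate in each library but distal replicate 1 and also higher distally. By the same measure they are not counted as the gate's own, and the part of free RNA in the result was not tested.

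RNA of other cells also moved with the region. Immune genes, mostly immunoglobulins, summed to 33088 and 37097 CPM of free RNA proximally but 12613 and 11910 CPM distally. Of the 119 called genes 37 did not exceed free RNA in their higher region. These include Fabp1, the fatty acid carrier of proximal enterocytes (log2 fold change -2.65, adjusted p = 0.0012), Olfm4, which marks crypt stem cells, and Fabp6, the bile acid carrier of the ileum, with 2 proximal and 298 distal UMIs (a pooled ratio of 128, 95% counting interval 35.0 to 1059). They tell the regions apart, and no level within the fibroblasts is read from them.

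The sides of the gate were also fitted alone, on cells that are part of the same sums. The trophocyte side held most of the gate's cells, so the overlap of its calls with the 119 was largely given in advance. On the trophocyte side alone 518 of 18403 tested genes passed. Of the 119 genes 112 were among them, all in the same direction, and each of the 24 named genes passed. On the subepithelial side, with between 579 and 1441 cells per library, 204 of 14511 tested genes passed. The named genes and the 119 were chosen from sums that hold these cells too, so their counts here are no separate replication. Of the named genes 20 could be tested there, 17 had the same direction and 10 passed. Of the 119 genes 42 passed on this side, 41 of them in the same direction. The exception, singled out after its values were seen, was Plxna4, a receptor for semaphorins, which rose distally in the whole gate (log2 fold change 0.81, adjusted p = 0.0484) and fell on the subepithelial side (log2 fold change -1.23, adjusted p = 0.000136). Hoxa4, Hoxa5, Hoxc6 and Hoxc8 passed on both sides, and Hoxc8 was at 3.10 (SE 0.18) and 2.89 (SE 0.21). Scara5, which fell by 2.04 on the trophocyte side, was at 0.10 (SE 0.47, adjusted p = 1.00) on the subepithelial side, and Alk was at -2.35 (SE 0.15) and -0.23 (SE 0.49). The difference between the sides was not tested.

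**Figure D4:**
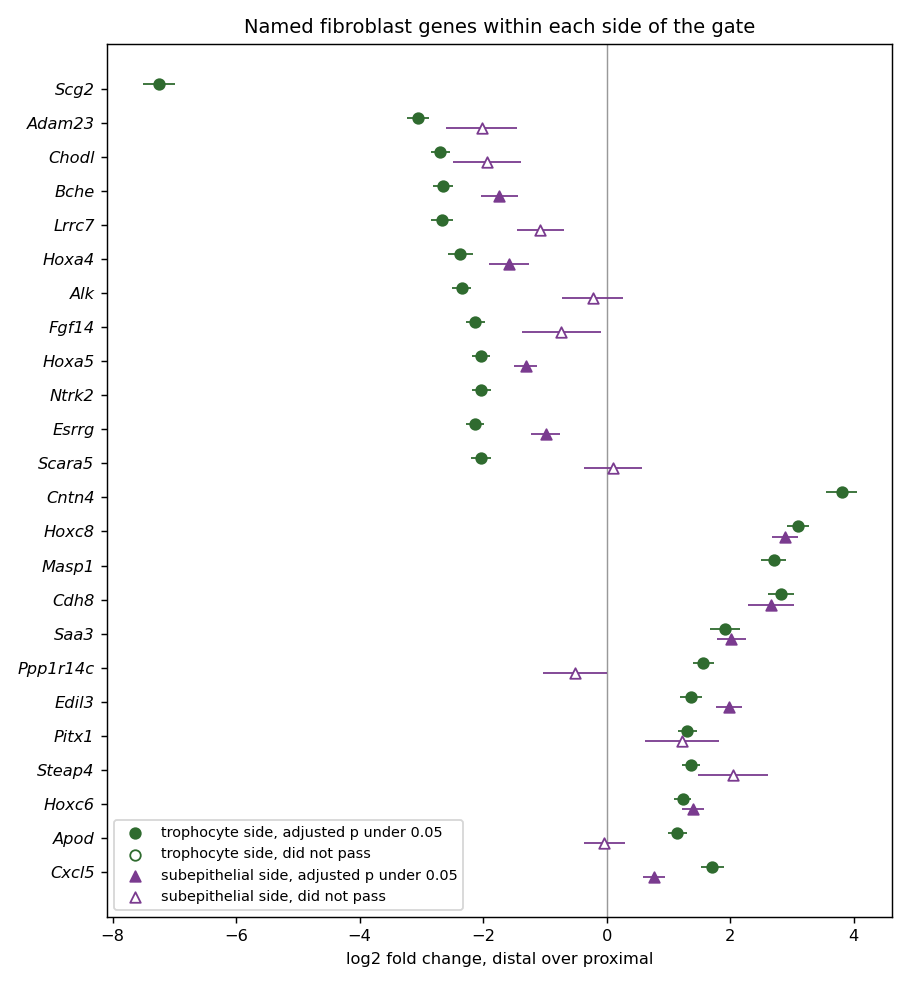
Log2 fold change (distal over proximal, with standard errors) of the 24 named genes in trophocyte-side cells (green circles) and, for the 20 genes tested there, in subepithelial-side cells (purple triangles). Filled symbols passed an adjusted p of 0.05. Hox genes have the same sign on both sides, while Scara5, Apod and Ppp1r14c lie on opposite sides of 0 without passing on the subepithelial side.

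In lymphatic cells fewer genes passed. Of 15733 tested, 3 were higher distally (0.0191% of those tested) and 22 lower (0.14%), and 17 of the 25 did not exceed free RNA in their higher region. On simulated data the blocked fit made more false calls than its threshold of 0.05 allows, 18.4% of its calls in the lymphatic gate against 8.18% in the fibroblast gate. Deviations of libraries with the same replicate number correlated at only 0.0263 in the lymphatic gate, against 0.324 in the fibroblast gate. The count changed with the setting. It was 0 without the block (532 at an unadjusted p under 0.05), 0 when 10% of each sum was subtracted along the free RNA profile (509), and 0 with a stricter cell filter (730). Without proximal replicate 1 it was 12, and 0 without any of the others, all without the block. Idi1, Sqle, Msmo1, Insig1, Cyp1a1, P4ha1, Dnaja4 and Gramd1b, described next, kept their direction under each of these settings.

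Enzymes of sterol synthesis were prominent among the genes lower in distal lymphatic cells. A list of 20 enzymes from acetyl-CoA to cholesterol, drawn up after these values had been seen and given no test of its own, had 19 genes below 0, with a median of -0.89 against 0.01 over all genes. In both replicates 17 of the 20 were lower distally, where 20.9% of all genes were. On their own 4 of the 20 passed, against 0.14% of all genes, among them Idi1, Sqle and Msmo1. Msmo1, a sterol methyl oxidase, was at 35.6 and 81.4 CPM proximally and 16.9 and 30.3 CPM distally (log2 fold change -1.31 ± 0.15 SE, adjusted p = 0.0390).

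Replicate 2 was higher than replicate 1 in both regions for these enzymes, so that Msmo1 separated across all libraries by a small margin while Idi1 and Sqle separated only within a replicate. Idi1, the isomerase of the pathway, was at 21.1 and 58.7 CPM proximally and 7.65 and 25.1 CPM distally (log2 fold change -1.33 ± 0.15 SE, adjusted p = 0.0362). Its distal replicate 2 lay above its proximal replicate 1. Sqle, the squalene epoxidase, was at 15.5 and 43.9 against 7.04 and 16.5 CPM (log2 fold change -1.35, adjusted p = 0.0434). These sizes depend on single libraries. With 1 left out and no block, Idi1 was at -1.77 without proximal replicate 1, -0.27 without proximal replicate 2, -0.73 without distal replicate 1 and -2.42 without distal replicate 2. In the same order Sqle was at -1.84, -0.31, -0.92 and -2.12, and Msmo1 at -1.77, -0.55, -1.005 and -1.82. The summed level of the 20 enzymes was 397 and 757 CPM proximally and 255 and 394 CPM distally. In the fibroblast gate it was 193 and 278 against 176 and 209 CPM, with a median log2 fold change of -0.19, and 1 enzyme passed there. In free RNA the enzymes summed to 282 and 459 CPM proximally and 204 and 286 CPM distally, below the lymphatic level in each library. Free RNA of these enzymes was thus also lower distally in both replicates. Its part was not tested beyond the subtraction of 10%, after which 0 lymphatic genes passed.

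Of 7 regulators of the pathway, also listed after their values had been seen, 1 passed, where 0.14% of all genes were called lower. In both replicates 6 were lower distally, where 20.9% of all genes were, and these 6 were below 0. The other 1, Scap, was higher distally in both replicates (log2 fold change 0.08, adjusted p = 1.00). Insig1, which holds SREBP2 back when sterol is plentiful and is itself one of its targets, fell by 1.31 (SE 0.15, adjusted p = 0.0384), from 34.6 and 70.1 to 12.1 and 32.0 CPM, but was below its free RNA level of 89.5 CPM. With 1 library left out it ranged from -0.58 without proximal replicate 2 to -2.14 without distal replicate 2. Srebf2, which encodes SREBP2, missed the threshold (log2 fold change -0.89, adjusted p = 0.0846). Genes on the LXR side lay the other way. Abcg1 and Abca1, which export cholesterol, were at 1.47 (adjusted p = 0.0890) and 0.56 (adjusted p = 0.379), and Mylip, a ubiquitin ligase, at 0.87 (adjusted p = 0.101). Of 12 LXR genes, also listed after their values had been seen, 0 passed and 10 were higher distally in both replicates, where 27.6% of all genes were. Of these 10, Srebf1, Scd1, Pltp and Apoe did not exceed free RNA. The list summed to 773 and 716 CPM proximally and 1060 and 1000 CPM distally, below its free RNA at 1133, 926, 1871 and 1003 CPM, which was also higher distally, and the part of free RNA was not tested. Gramd1b, a sterol carrier between membranes, passed with 20.2 and 16.7 CPM proximally and 47.9 and 38.9 CPM distally (log2 fold change 1.21 ± 0.14 SE, adjusted p = 0.0362).

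**Figure D5:**
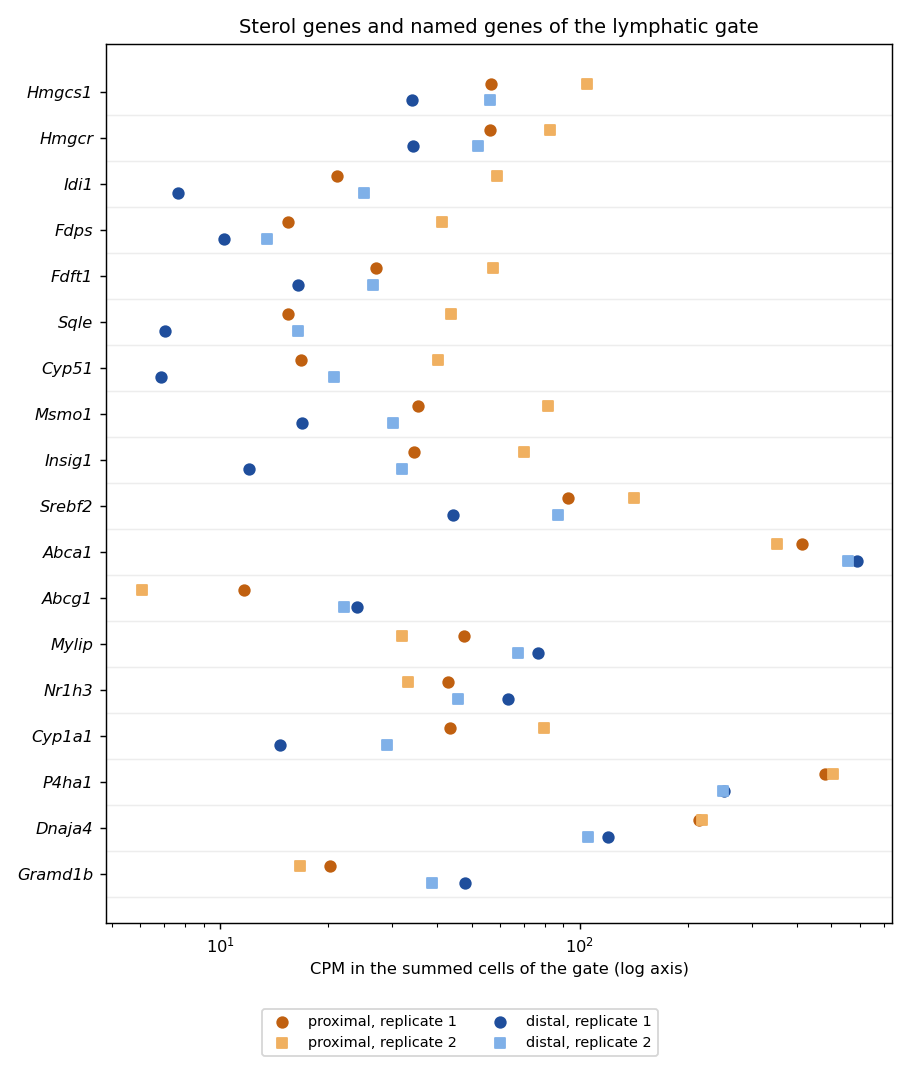
Level (CPM, log axis) in the summed lymphatic cells of each library of sterol genes (Hmgcs1 to Srebf2), LXR genes (Abca1 to Nr1h3) and the other named genes. Proximal libraries are orange, distal ones blue, and squares are replicate 2. Within each replicate the sterol genes lie lower distally, and P4ha1 falls from 481 and 506 to 251 and 250 CPM.

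Promoters of the sterol genes are shown because the members moved together. RefSeq promoter windows of GRCm38.p6, from 250 bases before to 50 bases after the start, were at hand for 16 of 21 genes, the 20 enzymes and Insig1. The box CCAAT, which NF-Y binds and which often accompanies SREBP sites, was searched on both strands and is in capitals (ATTGG where it lies on the other strand). It was found in 15 of the 16, against 37.4% of all 32851 windows, with no correction for base composition. Its part in the regional change was not tested. The sterol element TCACNCCAC was found, also on both strands, in 1 of the 16, that of Hmgcs1, against 1.24% of all windows. The last sequence is that of Cyp1a1, with the core GCGTG of the aryl hydrocarbon receptor's site in capitals, which 32.4% of all windows hold on either strand.
Idi1 (chr13:8885356-8885655, plus strand): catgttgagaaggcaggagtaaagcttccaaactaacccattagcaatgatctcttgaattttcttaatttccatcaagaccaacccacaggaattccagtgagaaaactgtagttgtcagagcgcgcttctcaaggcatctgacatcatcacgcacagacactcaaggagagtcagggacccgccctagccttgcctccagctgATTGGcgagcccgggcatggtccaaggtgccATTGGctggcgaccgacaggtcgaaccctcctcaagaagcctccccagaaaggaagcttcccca
Msmo1 (chr8:64733529-64733828, minus strand): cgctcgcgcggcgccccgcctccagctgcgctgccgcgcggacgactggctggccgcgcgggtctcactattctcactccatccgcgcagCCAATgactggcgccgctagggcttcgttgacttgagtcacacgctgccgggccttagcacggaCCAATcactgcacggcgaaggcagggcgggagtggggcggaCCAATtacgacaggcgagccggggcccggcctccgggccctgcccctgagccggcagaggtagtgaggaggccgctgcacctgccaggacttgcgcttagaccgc
Insig1 (chr5:28071162-28071461, plus strand): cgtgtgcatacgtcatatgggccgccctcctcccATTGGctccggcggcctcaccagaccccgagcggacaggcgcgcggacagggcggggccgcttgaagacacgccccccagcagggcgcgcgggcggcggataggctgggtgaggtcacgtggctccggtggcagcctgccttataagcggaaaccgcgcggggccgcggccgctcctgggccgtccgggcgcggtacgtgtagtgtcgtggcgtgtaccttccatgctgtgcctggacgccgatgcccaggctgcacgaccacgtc
Cyp1a1 (chr9:57697363-57697662, plus strand): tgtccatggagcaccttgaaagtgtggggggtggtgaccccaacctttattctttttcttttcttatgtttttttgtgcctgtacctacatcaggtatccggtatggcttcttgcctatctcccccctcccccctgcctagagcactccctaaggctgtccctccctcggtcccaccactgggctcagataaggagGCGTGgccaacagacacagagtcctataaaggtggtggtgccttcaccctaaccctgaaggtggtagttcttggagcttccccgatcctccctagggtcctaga

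Cyp1a1, a detoxifying enzyme that the aryl hydrocarbon receptor induces, was at 43.6 and 79.5 CPM in proximal and at 14.7 and 29.2 CPM in distal lymphatic cells (log2 fold change -1.52 ± 0.14 SE, adjusted p = 0.0132). Both distal libraries lay below both proximal ones, and the level exceeded free RNA at 14.9 CPM proximally and 4.81 CPM distally. Free RNA of Cyp1a1 was thus also lower distally. Its part was not tested beyond the subtraction of 10%, after which 0 lymphatic genes passed. The lymphatic change of Cyp1a1 ranged from -0.93 without proximal replicate 2 to -2.09 without distal replicate 2 on the log2 scale. Fibroblasts did not exceed 0.645 CPM and were also lower distally, without passing (log2 fold change -2.06, adjusted p = 0.189). Other genes tied to this receptor did not follow, with log2 fold changes of -0.11 for Cyp1b1, 0.10 for Ahrr, -0.11 for Tiparp, -0.06 for Nqo1 and 0.09 for Ahr itself, none of which passed. P4ha1, a prolyl hydroxylase for collagen, was at 481 and 506 CPM proximally and 251 and 250 CPM distally (log2 fold change -0.997 ± 0.13 SE, adjusted p = 0.0461).

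Dnaja4, a heat shock co-chaperone that is also a target of SREBP, was at 215 and 219 CPM against 120 and 105 CPM (log2 fold change -0.98 ± 0.12 SE, adjusted p = 0.0452). A list of 34 immediate early and heat shock genes, which cells switch on when tissue is digested, had 33 genes below 0 in lymphatic cells with a median of -0.44, and none passed. In both replicates 29 of them were lower distally, where 20.9% of all genes were. Their summed level was 19149 and 23318 CPM proximally and 13280 and 16121 CPM distally. In fibroblasts the median was 0.07 and the summed levels, 12562 and 11444 against 15328 and 10716 CPM, overlapped. The part of this difference in the lymphatic results was not tested.

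Most of the other lymphatic calls did not exceed their level in free RNA. Igkc, the kappa chain of antibodies, was at 1659 and 2579 CPM proximally and 270 and 604 CPM distally (log2 fold change -2.37, adjusted p = 0.0100), but at 19629 and 6924 CPM in the free RNA of the proximal and distal libraries. Igha, Jchain, Mzb1, Iglc1, 4 hemoglobin genes and Fabp1 went the same way. The hemoglobin values rest on proximal replicate 2, where Hba-a1 had 523 UMIs in 0.265% of the cells, against 10 in proximal replicate 1 and 1 and 0 distally, and with 1 library left out its log2 fold change lay between -10.8 and -5.13. Also lower was Cdh19, a cadherin of enteric glia, at 5.09 and 4.51 against 0 and 0.0802 CPM. In free RNA Cdh19 was at 6.26 CPM proximally and 4.01 CPM distally. The remaining genes higher distally, Dkk2 and Ppfia2, also lay below free RNA.

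No Hox gene passed in lymphatic cells. Of the 24 tested there, 17 had a fitted change above 0, with a median of 0.15, and 7 had an unadjusted p under 0.05. Hoxa5 was at 29.9 and 41.6 CPM proximally and 22.5 and 37.9 CPM distally, which overlap (log2 fold change -0.28 ± 0.14 SE, adjusted p = 1.00). Hoxa3 was at 0.02 (SE 0.13). Hoxc8 was at 0.736 and 0.197 against 3.42 and 5.69 CPM (log2 fold change 3.62, adjusted p = 0.113), where free RNA held 64.9 CPM distally. Hoxc6 and Hoxc9 were at fitted changes of 1.64 and 4.33 on 9 to 149 and 0 to 14 UMIs per library, and lay below free RNA in both regions. The difference between the gates was tested itself, with library as a block. Of 19574 genes 0 passed (0%; edgeR, 776 at an unadjusted p under 0.05, and limma-voom also 0). Hoxa5 and Alk came nearest among the named genes, with the distal fall greater in fibroblasts by 1.63 (SE 0.12) and 2.23 (SE 0.17) on the log2 scale and an adjusted p of 0.0878 for both. The regional change of fibroblasts is therefore not shown to differ from that of lymphatic cells. Only 3 genes were called in both gates, among them Fabp1 and Iglc1, which is 2.52% of the fibroblast and 12% of the lymphatic calls.

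The reporter gene, its marker and the hormone receptor of the study did not pass. Tslp was at 1.73 and 0.720 CPM in proximal and 2.64 and 1.11 CPM in distal fibroblasts (log2 fold change 0.66 ± 0.24 SE, adjusted p = 0.574), and the replicates of a region lay farther apart than the regions within a replicate. Tslp was higher distally in both replicates, where 19.1% of all genes were. It also lay higher in 6 of 6 same-hashtag pairs, which are parts of the same libraries. The tdTomato transcript was at 3.23 and 1.47 against 5.82 and 2.36 CPM (log2 fold change 0.81 ± 0.21 SE, adjusted p = 0.223), also in both replicates and 6 of 6 pairs. Its mean distal level of 4.09 CPM in fibroblasts did not exceed free RNA at 5.43 CPM. That free RNA was also higher distally, from 2.39 CPM proximally. In lymphatic cells the mean Tslp level was 1.42 CPM proximally and 1.49 CPM distally, against 0.668 and 1.59 CPM in free RNA. Tslp thus exceeded free RNA proximally there but not distally, its higher region. Mean tdTomato lay below free RNA in both regions there. The log2 fold changes of Tslp and tdTomato in lymphatic cells were 0.16 and 0.58 (adjusted p = 1.00 for both). Glp2r, the receptor of the gut hormone GLP-2, was at 34.8 and 37.9 against 52.8 and 35.9 CPM (log2 fold change 0.31 ± 0.19 SE, adjusted p = 1.00) and did not exceed its level in free RNA, 61.0 CPM proximally and 73.7 CPM distally.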

How the data were processed

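Sorted tdTomato+ cells of 2 proximal and 2 distal libraries were analysed, with the cecum and large intestine used only where named. The authors aligned the reads with Cell Ranger to mm39 with tdTomato added (8.1.0 in the processing notes, 8.0.1 in the matrix headers) and deposited raw UMI counts of all barcodes, before doublet removal and ambient RNA correction. A cell had 1000 to 7500 detected genes, 2500 to 40000 gene UMIs and a mitochondrial share under 10%, which left 17282 and 17924 proximally and 21299 and 20327 distally, and no doublets were removed. A library held between 168250954 and 206827504 gene UMIs. Counts were summed per library and gate, filtered (filterByExpr, minimum count 10), TMM-scaled and fitted in edgeR with replicate number as a block. The standard error of a fold change comes from its F statistic. Replicate numbers pair the libraries only through shared hashtags. Their deviations correlated at 0.324 in the fibroblast and 0.0263 in the lymphatic gate. Both fits were tested on simulated data with known changes. The blocked fit recovered a share of them in both gates, with a share of false calls above the threshold of 0.05 in both and highest in the lymphatic gate. The unblocked fit recovered none. The simulated data held the replicate differences of the blocked fit, so they cannot decide between the fits. Named were, per gate and direction, up to 12 genes with the largest change among those past the threshold whose regions did not overlap, at 10 CPM or more and at or above free RNA in the higher region, gate genes excepted, besides members of the lists. Of 33697 gene identifiers, 33185 were in the GRCm39 annotation used for places. Some genes of the lists are counted but not reported here by name. The members and lists were chosen with earlier results of these data known. The sterol, LXR, aryl hydrocarbon receptor and reporter lists were drawn up after their values had been seen. Alternatives were limma-voom, DESeq2, RLE scaling, no block, no filter, each library left out, free RNA subtracted, cells with 1 hashtag, stricter gates and cells, and each side of the fibroblast gate. The tools were edgeR 4.0.16, limma 3.58.1 and DESeq2 1.42.0 in R 4.3.3, with scipy 1.17.1, numpy 2.4.6, pandas 2.3.3 and matplotlib 3.10.9 in Python 3.11.15.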

Additional observations from a re-analysis of the deposited data

Results flagged for a closer look

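The libraries of the cecum and the large intestine, 1 each and outside the comparison, held more than 2 times the highest small intestinal level of 2 named genes in the fibroblast gate. Pitx1 was at 190 CPM in the cecum and 175 CPM in the large intestine, against at most 19.6 CPM in a small intestinal library. Adam23, which fell from the proximal to the distal small intestine, was at 36.8 CPM in the cecum and 134 CPM in the large intestine, against at most 17.6 CPM.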

How the results depend on the processing

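The main counts were 119 genes in the fibroblast gate, 25 in the lymphatic gate and 0 between gates. In fibroblasts the count was 0 without the replicate block, 195 with DESeq2, 197 with RLE scaling, 554 without a filter, 332 with free RNA subtracted, 68 with 1 hashtag, 213 with the stricter gate, 278 with the stricter cell filter, 518 on the trophocyte side and 204 on the subepithelial side. Leaving out 1 library gave 0 to 53, with 15 without proximal replicate 1. In lymphatic cells it was 0 without the block, with free RNA subtracted and with the stricter cell filter, 17 with limma-voom, 54 with DESeq2, 220 without a filter and 44 with the stricter gate, and 0 to 12 with 1 library left out. Between gates it was 26 without a filter and 0 to 14 with 1 library left out. With the replicate block in place of the library block it was 0. The cause of these moves was not tested. Deviations of libraries with the same replicate number correlated at 0.324 in the fibroblast and 0.0263 in the lymphatic gate. With only 2 pairs and no label that ties the numbers to mice, the block cannot be checked beyond that. Apod, Ppp1r14c, Scara5 and Sema3d changed sign on the subepithelial side, to -0.043, -0.52, 0.10 and 0.20 on the log2 scale, without passing. Plxna4 passed there with the opposite sign (-1.23). The distal minus proximal share of fibroblasts was 7.48 percentage points and ranged from -10.5 to 25.4 with 1 library left out, that of lymphatic cells was -5.37 and ranged from -18.2 to 7.43, and both changed sign without proximal replicate 2 (-0.538 and 2.48) or distal replicate 1 (-10.5 and 7.43). The least deep sum, the lymphatic gate of distal replicate 1, holds 747 cells, and the median standard error was 0.185 in the lymphatic and 0.186 in the fibroblast gate.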

Other observations

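Hox genes beyond the small intestinal range were found in the single cecum and large intestine libraries, which have no replicate. In the fibroblast gate Hoxa10 was at 47.5 CPM in the cecum and 76.8 CPM in the large intestine and did not exceed 0.0795 CPM in the small intestine. Hoxd11 was at 20.8 and 46.3 CPM, against at most 0.0265 CPM. Hoxc8, which separates the ends of the small intestine, was at 7.07 CPM in the cecum and 1.37 CPM in the large intestine, below both proximal libraries. Hoxc10 was at 34.3 and 7.51 CPM there, against at most 0.524 CPM in the distal small intestine. Alk, which was lower distally, was at 1.15 and 0.510 CPM. In lymphatic cells Cyp1a1 was at 0.838 CPM in the cecum and at 0 in the large intestine. The gate held 220 and 249 cells there.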
